A study of Spirodela polyrhiza with 12 samples.

Results

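A set of 127 genes of Spirodela polyrhiza, the giant duckweed, was abundant and kept nearly the same level at indoor, middle and high temperature, once each library was set to its own median gene. The 127 genes were drawn from 18099 genes in the deposited table and were chosen on measured values. Each gene's FPKM (fragments per kilobase of transcript, relative to the library's mapped fragments) was divided by the library's median FPKM over the 12316 genes that reached an FPKM of 1 in every one of the 12 libraries, and multiplied by 15, which is called the scaled level here. A gene was kept if the lowest of its 3 group means of the scaled level, with 0.5 added, was at least 60, if the highest was less than 1.2 times the lowest, and if the SD over the 12 libraries was under 20% of the mean. Genes among the 100 of highest mean FPKM at indoor temperature were left out. The level, the ratio between groups and the spread were thus used for the choice and are given as a description, with no test.

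RNA was taken from leaf samples, in 3 groups of 4 libraries each: plants labelled with indoor temperature, taken here as the control, with middle temperature or with high temperature. The labels give no strain, no temperature in degrees and no exposure time, and file the temperature under genotype. All libraries were made from poly(A)-selected messenger RNA. The labels do not say that the 4 libraries of a group are separate cultures. The p-values therefore reflect only how these samples differ among themselves, and that spread may be technical.

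Transcripts that hold their level across conditions are the usual yardsticks of expression work, since the level of any other gene is read against them. Sequencing gives each transcript only as a share of the library. When a few transcripts take up a larger part of a library, the share of every other transcript falls even if its amount per cell is the same. Whether a gene counts as steady therefore depends on what it is measured against. The table pairs no identifier with a gene name, and no annotation was used here, so the genes are given by identifier, their roles are not described and the leaf label was not checked against marker genes.

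A minority of the abundant genes met the thresholds chosen here for steadiness. The abundance floor was met by 1341 genes, of which 1241 stood outside the 100 most abundant. Of these 1241 genes, 180 (14.5%) met the ratio between groups, and 53 of the 180 then varied too much between libraries, which left the 127 (10.2%). The other 1114 genes are called the other abundant genes below. The 127 had a mean FPKM over all libraries of 81.2 to 705 with a median of 131, and held ranks 123 to 1905 at indoor temperature. The ratio of the highest to the lowest group was 1.02 to 1.1999 with a median of 1.13, against a median of 1.54 in the other abundant genes, the highest of which reached 256. The SD over the 12 libraries was 7.19% to 19.99% of the mean with a median of 14.6%, against a median of 27.6% in the other abundant genes. All 127 genes passed the filter on low values (FPKM 1 or more in 4 or more libraries), as did 15209 genes in all. The lowest estimated count of any of the 127 in any library was 389.

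**Figure D1:**
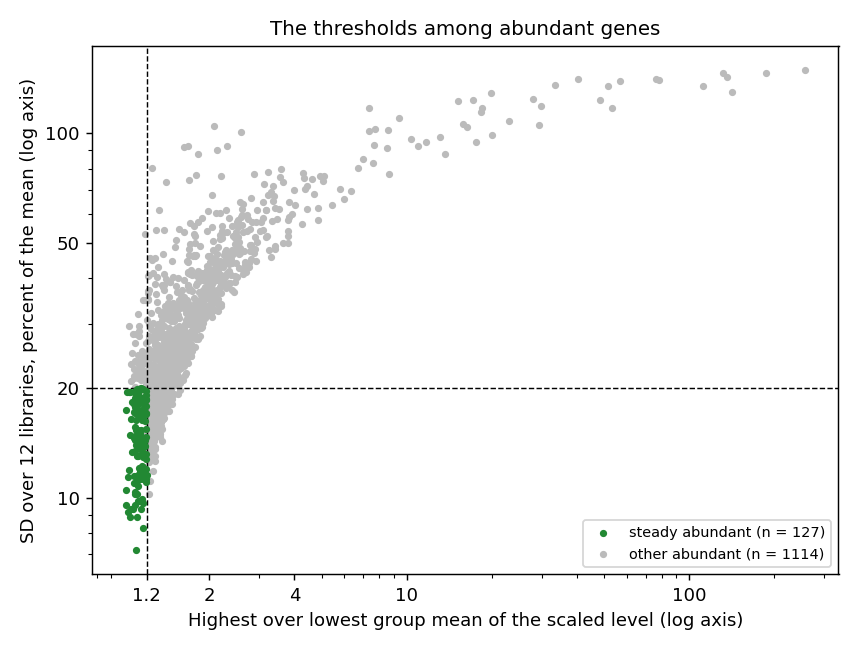
Spread over the 12 libraries (vertical, SD as a percent of the mean, log axis) against the ratio of the highest to the lowest group mean of the scaled level (horizontal, log axis) for 1241 abundant genes, with the thresholds of 20% and 1.2 as dashed lines. The 127 steady genes fill the lower left corner by construction, and the 1114 other abundant genes run on from its edges without a gap.

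Genes on either side of the floor, the ratio and the spread had nearly the same values. At the abundance floor of 60, Spipo8G0043800.v2 entered with a lowest group level of 60.2 and Spipo5G0001400.v2 missed it with 59.7. At the ratio of 1.2, Spipo15G0031200.v2 was inside with 1.1999 and Spipo8G0064700.v2 outside with 1.2005. At the spread of 20%, Spipo7G0036800.v2 was inside with 19.99% and Spipo2G0041800.v2 outside with 20.055%. The rank limit removed 2 genes that met every other threshold, and the nearer of them to the limit, Spipo3G0108100.v2, held rank 25. 

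Among the 127, the least variable was Spipo2G0050400.v2. Its scaled level was 177.5, 187, 150.5 and 172 in the indoor libraries, 162, 177, 177 and 168 in the middle libraries and 195, 181, 193 and 183 in the high libraries. The indoor libraries overlapped with those of both other groups, while every high library was above every middle library, and the SD was 7.19% of the mean. Of the next 4 in order, Spipo9G0066500.v2 averaged 66.2 ± 7.93 in indoor, 68.7 ± 5.21 in middle and 69.5 ± 6.03 in high libraries (SD, n = 4 each), and Spipo1G0061800.v2 averaged 82.4 ± 10.02, 84.8 ± 9.65 and 83.3 ± 3.94 in the same order. For both genes the group means lay closer together than the libraries of 1 group. Spipo14G0052600.v2 averaged 77.1 ± 9.79 in indoor, 75.8 ± 2.89 in middle and 69.3 ± 2.77 in high libraries.

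Spipo14G0015400.v2 had the second smallest spread, 8.28% of the mean. Its scaled level was 72.2, 76.5, 80.6 and 78.0 in the high libraries, against 66.3, 63.5, 66.1 and 67.45 in the indoor libraries, and it was 71.7, 64.6, 63.9 and 69.1 in the middle libraries. Every high library was above every indoor library and every middle library. Of the 127 genes it alone showed no overlap between high and indoor libraries on the scaled level, where 30.3% of all genes tested showed none. The groups overlapped for 123 genes between middle and indoor temperature, where 37.7% of all genes showed no overlap, and for 121 between high and middle temperature, where 31.1% showed none. For high against indoor temperature its log2 fold change was 0.21 ± 0.12 (SE), and its p, adjusted by Benjamini-Hochberg over all genes, was 0.182 in the edgeR quasi-likelihood test and 0.0480 in DESeq2. Over all settings that correct for library composition the adjusted p was 0.0480 to 0.306. DESeq2 called 1 of the 127 for high against indoor temperature, this gene, beside 37.5% of all genes it tested. It called 0 for middle against indoor temperature, beside 41.4% of all genes, and 2 had an unadjusted p under 0.05, beside 48.6%. It called 0 for high against middle temperature, beside 35.5% of all genes, and 5 had an unadjusted p under 0.05, beside 44.3%. The choice used the same contrasts, so nothing is read from these counts.

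The most abundant of the 127 was Spipo6G0023400.v2. Its scaled level was 500, 489, 434 and 670 in the indoor libraries, 530, 660, 420 and 573 in the middle libraries and 613, 396, 441 and 543 in the high libraries. The groups overlapped, and the libraries within each group lay far apart, from 434 to 670 at indoor temperature. Spipo8G0047300.v2, next in abundance, averaged 506 ± 49.1 in indoor, 492 ± 83.6 in middle and 552 ± 105 in high libraries (SD, n = 4 each). Spipo17G0006200.v2 averaged 390 ± 49.3, 364 ± 39.0 and 402 ± 74.96 in that order, and Spipo14G0012800.v2 averaged 356 ± 38.9, 302 ± 66.2 and 344 ± 60.6. In these 3 genes too the differences between group means were smaller than the largest SD within a group.

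**Figure D2:**
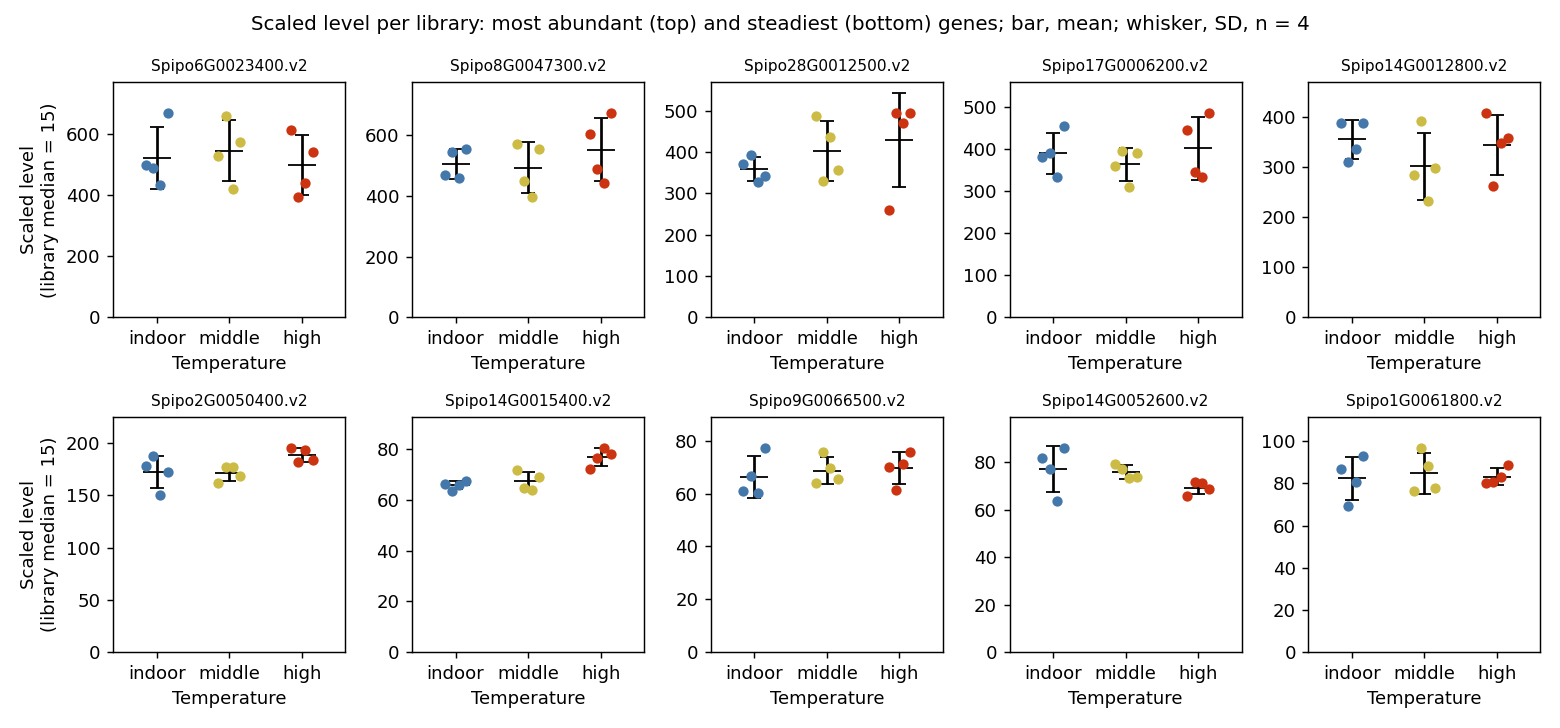
Scaled level in each library (vertical, set so that the median gene of a library is at 15, axes starting at 0) at indoor, middle and high temperature for the 5 most abundant (top row) and the 5 least variable (bottom row) of the 127 genes, with points for libraries, bars for means and whiskers for the SD (n = 4). High replicate 1 of Spipo28G0012500.v2 stood at 260, below the other high libraries at 469 to 494, and the high libraries of Spipo14G0015400.v2 all lay above the indoor ones.

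On the deposited FPKM, without the library median, the same genes were not level. The median FPKM over the 127 genes was 137 to 165 across the indoor libraries, 134 to 183 across the middle libraries and 84.2 to 99.6 across the high libraries. Every high library was below every indoor and every middle library. The 127 genes together held 1.57% ± 0.11 of the estimated counts at high temperature, against 2.55% ± 0.20 in indoor and 2.66% ± 0.24 in middle libraries (SD, n = 4 each). For Spipo2G0050400.v2, the least variable gene, the deposited FPKM was 193, 174, 176 and 147 in the high libraries, against 264, 275, 216 and 263 in the indoor libraries, with no overlap. In deposited FPKM 102 of the 127 genes had no overlap between high and indoor libraries, all 102 lower at high temperature. Of all genes tested 53.6% did not overlap in either direction, and 47.0% were lower without overlap. Between high and middle temperature 106 genes did not overlap, all lower at high temperature. This stands beside 58.0% of all genes tested in either direction and 54.9% lower. Between middle and indoor temperature the libraries overlapped for 122 of the 127, beside 36.5% of all genes tested that did not overlap. FPKM is a share of the library, so a larger part taken up by other transcripts also lowers it. In bulk samples such a shift, fewer cells that express a gene and less RNA per cell cannot be told apart. None of these was tested.

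**Figure D3:**
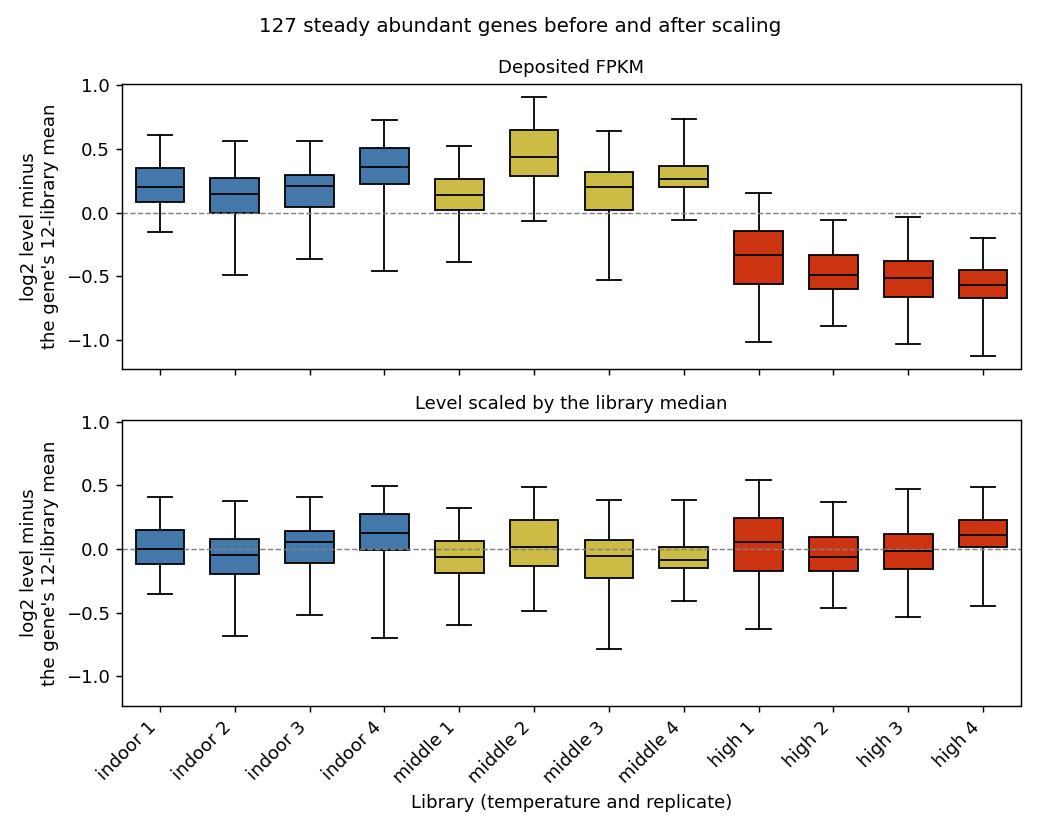
Level of the 127 genes in each of the 12 libraries (vertical, log2 level minus the same gene's mean over the 12 libraries) from the deposited FPKM (top) and after division by the library median (bottom), with boxes for the quartiles, a line for the median and whiskers for the lowest and highest gene. In the top panel the medians of the 4 high libraries lie between -0.57 and -0.33, below all others, and in the bottom panel all 12 medians lie between -0.08 and 0.12.

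The library median, by which the levels were scaled, also differed between groups. It was 13.8 ± 1.22 FPKM at high temperature, against 22.2 ± 0.54 FPKM at indoor temperature, a ratio of 0.620 (SD, n = 4 each). By a two-sided exact permutation test p was 0.0286, the lowest value that this design allows, and the Benjamini-Hochberg adjusted p over the 3 comparisons was 0.0429. Against the 24.0 ± 1.62 FPKM at middle temperature the ratio of the high group was 0.572, with the same p-values by the exact permutation test. Between middle and indoor temperature the ratio was 1.08, and the difference missed the threshold (two-sided exact permutation test, p = 0.0571, adjusted p = 0.0571). The 127 were chosen to keep close to this median, so a change of the median gene and a change of the 127 cannot be told apart here. With any 1 library left out, the smallest p that the exact permutation test allows is 0.0571.

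High and indoor temperature were compared for the response to high temperature that the series title names. With TMM scaling, which assumes that the bulk of genes is unchanged, edgeR's quasi-likelihood test called 0 of the 127 genes at an adjusted p under 0.05, while 32.8% of the 15209 genes tested were called. At an unadjusted p under 0.05 it passed 0 of the 127, beside 43.5% of all genes tested. The choice of the genes used these values, so nothing is read from those counts. The log2 fold changes of the 127 ran from -0.27 to 0.25 with a median of -0.01 and a median SE of 0.16, beside a median of -0.04 over all genes tested and 0.14 over the other abundant genes. The highest was that of Spipo28G0012500.v2, at 0.25 ± 0.21 (SE, adjusted p = 0.386 by edgeR's quasi-likelihood test). Its scaled level was 260, 494, 469 and 494 in the high libraries, against 370, 394, 328 and 343 in the indoor libraries, so that 3 high libraries lay above all indoor ones and 1 below them. Without that library, high replicate 1, the log2 fold change was 0.43 with an edgeR adjusted p of 0.0711. The lowest was that of Spipo4G0047200.v2, at -0.27 ± 0.16 (adjusted p = 0.231 by the same edgeR test), with overlapping groups.

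Scaled by library totals alone, the same edgeR test called 125 of the 127 genes lower at high than at indoor temperature and 0 higher, beside 57.2% of all genes tested that were lower. Their log2 fold changes then ran from -0.97 to -0.44 with a median of -0.70, beside a median of -0.73 over all genes tested. The choice held the 127 close to the median gene, so nothing is read from how near these medians are. Between high and middle temperature all 127 were lower with library totals, beside 62.9% of all genes, with log2 fold changes from -1.08 to -0.55 and a median of -0.74, beside -0.82 over all genes tested. Between middle and indoor temperature 0 of the 127 were called with library totals, while 22.3% of all genes were called higher and 11.9% lower. An unadjusted p under 0.05 was found for 3 of the 127, all higher at middle temperature, beside 44.2% of all genes in either direction.

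Middle and indoor temperature were compared for the intermediate treatment. With TMM scaling edgeR called 0 of the 127 genes, beside 36.9% of all genes tested. At an unadjusted p under 0.05 it passed 0 of the 127, beside 46.7% of all genes. The log2 fold changes ran from -0.28 to 0.23 with a median of -0.11, against -0.02 over all genes and -0.27 over the other abundant genes. The highest was that of Spipo23G0023600.v2, with a scaled level of 265, 311, 295 and 253 in the middle libraries, against 243, 222, 219 and 259 in the indoor libraries. Its log2 fold change was 0.23 ± 0.15 (SE, adjusted p = 0.2235 by edgeR's quasi-likelihood test), and the groups overlapped through a single library on either side. The lowest was that of Spipo4G0036600.v2, at -0.28 ± 0.17 (adjusted p = 0.208 by the same edgeR test), and at -0.16 without indoor replicate 3.

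High and middle temperature were compared directly. With TMM scaling edgeR called 0 of the 127 genes, beside 30.4% of all genes tested. An unadjusted p under 0.05 was found for 1 of the 127, beside 42.3% of all genes. The log2 fold changes ran from -0.25 to 0.27 with a median of 0.09, against 0.00 over all genes and 0.38 over the other abundant genes. The highest was that of Spipo15G0031200.v2, which also lay just inside the ratio threshold. Its scaled level was 208, 159, 200 and 211 in the high libraries, against 169, 169, 141 and 169 in the middle libraries, and its log2 fold change was 0.27 ± 0.14 (SE, adjusted p = 0.147 by edgeR's quasi-likelihood test). The lowest was that of Spipo4G0035000.v2, at -0.25 ± 0.18 (adjusted p = 0.323 by the same edgeR test). In each of the 3 comparisons limma on the scaled level called 0 of the 127 genes, with 0 at an unadjusted p under 0.05. It called 34.3% of all genes for high against indoor, 37.5% for middle against indoor and 31.7% for high against middle temperature. At an unadjusted p under 0.05 the shares of all genes were 44.3%, 46.9% and 43.1% in that order. The choice used these scaled levels, so the counts of 0 are a description only. The 3 comparisons share libraries, so their fold changes are not independent of each other.

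**Figure D4:**
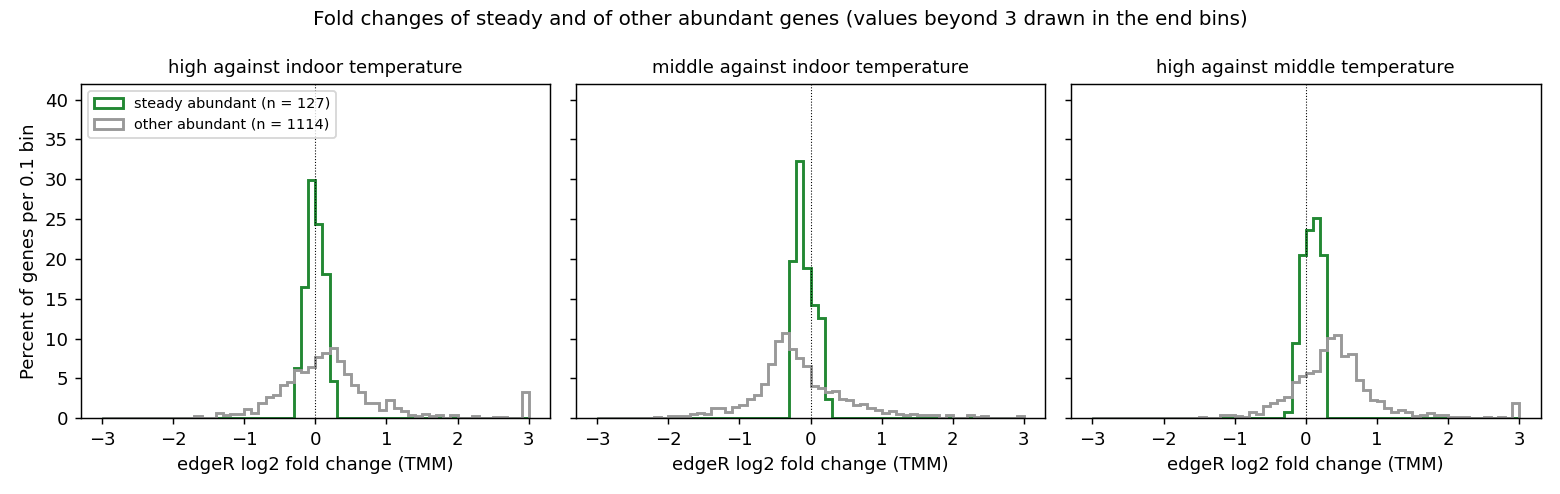
Distribution of edgeR log2 fold changes with TMM scaling (horizontal) as the percent of genes per bin of 0.1 (vertical) for the 127 steady genes and the 1114 other abundant genes in each comparison. The steady genes lie between -0.28 and 0.27 in all panels. The choice bounded their group ratios on the scale of the library median, so a narrow range is built in here. The other abundant genes centre at 0.14, -0.27 and 0.38 for high against indoor, middle against indoor and high against middle temperature.

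A missed threshold does not show that levels were equal, so the width of the intervals was also read. With limma on the log2 scaled level with 0.5 added, the 95% interval of a difference between groups, on 9 residual degrees of freedom, had a median half-width of 0.38 in log2, or 1.3-fold, and a largest half-width of 1.42-fold. The interval stayed within a 1.5-fold difference for 106 of the 127 genes between high and indoor temperature, for 92 between middle and indoor temperature and for 108 between high and middle temperature. It did so in all 3 comparisons for 80 genes. In each comparison all 127 intervals stayed within 2-fold. The choice used these same scaled levels and bounded both the group differences and the spread. The counts of intervals within 1.5-fold and 2-fold are therefore a description only, and no equality is read from them. Because genes were chosen for small differences in these libraries, the intervals do not say how the genes would behave in other samples.

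Within the narrow range that the choice allows, the order of the groups was uneven. The middle group was lowest for 74 of the 127 genes (58.3%), and highest for 26. The high group was highest for 45 genes (35.4%) and lowest for 26, and the indoor group was highest for 56 and lowest for 27. The commonest order, found for 40 genes, was middle lowest and indoor highest, followed by middle lowest and high highest for 34. Among the 1061 other abundant genes that missed the ratio, the middle group was lowest for 57.8% and the high group highest for 54.9%. The 127 genes thus had the low middle level at about the same share as the genes that missed the ratio, on a scale set by the median gene. No test was made, since the group means were used for the choice.

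To see how far steadiness in some samples carries to others, genes were chosen by the same thresholds in only a pair of groups and read in the group left over. The 324 genes steady between middle and indoor temperature included 159 (49.1%) within 1.2-fold of the mean of these groups at high temperature. Of all 1291 genes that were abundant in the same groups, 43.2% were within 1.2-fold. Within 1.5-fold were 88.0% of the steady genes and 77.5% of all abundant genes. The median of the steady genes was 1.154 times the mean of the choosing groups, 31 of them were higher by 1.5-fold or more at high temperature and 8 lower by 1.5-fold or more, and single genes reached 0.314 and 4.16 times.

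The share within 1.2-fold was lowest at middle temperature, both for steady genes and for all abundant genes. Of 438 genes steady between high and indoor temperature, 165 (37.7%) were within 1.2-fold at middle temperature, against 32.9% of 1533 abundant genes, and 67 were lower by 1.5-fold or more against 6 higher by as much. Their median at middle temperature was 0.800 times the mean of the choosing groups, beside 0.780 for all abundant genes. Of 293 genes steady between high and middle temperature, 156 (53.2%) were within 1.2-fold at indoor temperature, against 42.3% of 1443 abundant genes. The shares within 1.5-fold were 83.3% against 67.8% at middle and 83.6% against 70.3% at indoor temperature. In all 3 readings the genes chosen as steady were within 1.2-fold more often than the abundant genes as a whole, and no test was run on these shares, since genes of the same libraries are not independent.

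**Figure D5:**
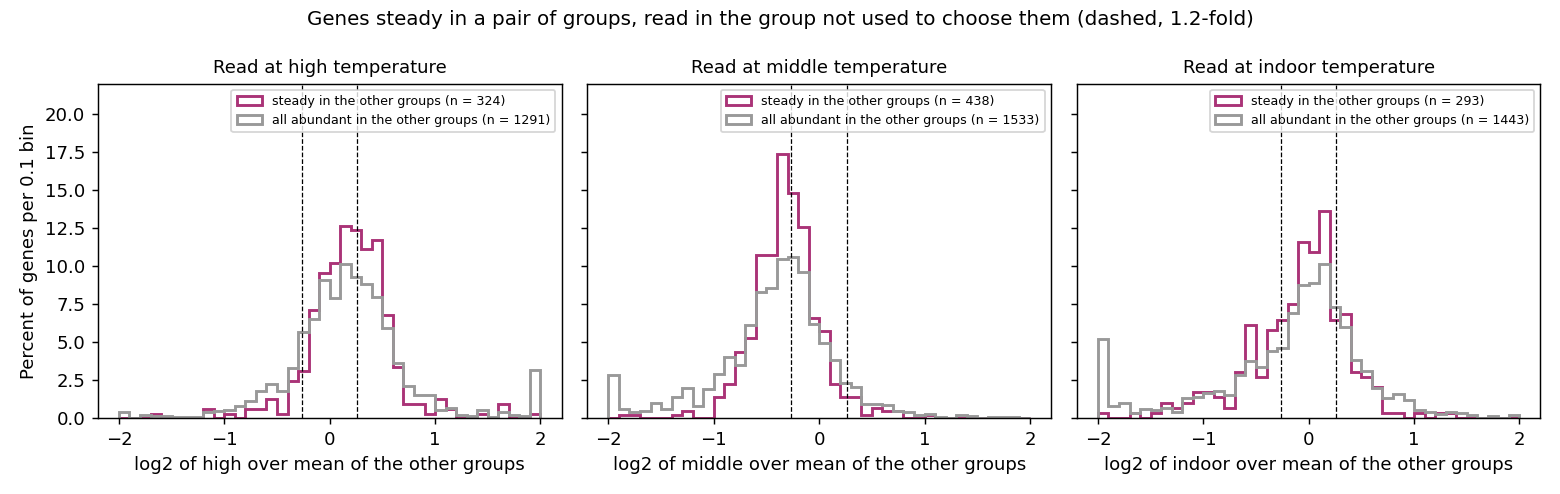
Distribution of the log2 ratio of the group left over to the mean of the choosing groups (horizontal, scaled level) as the percent of genes per bin of 0.1 (vertical), for genes steady in the choosing groups and for all genes abundant there, with 1.2-fold as dashed lines and values beyond 2 drawn in the end bins. Both distributions share nearly the same centre in each panel, and the steady genes have thinner tails.

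Part of the variation within groups was shared between genes. Within the indoor, middle and high groups the SD of a gene among its 4 libraries had medians of 12.5%, 13.3% and 15.6% of its mean, against 18.1%, 16.6% and 20.4% in the other abundant genes. The choice limited the spread over all 12 libraries, so lower values in the 127 genes are built in here too. Differences between groups made up a median of 15.2% of the variance of the log2 scaled level in the 127 genes, against 56.5% in the other abundant genes, a contrast that the choice builds in. After the group means were removed, the first principal component held 43.1% of the remaining variance in the 127 genes and 30.4% in the other abundant genes. High replicate 1, middle replicate 2 and indoor replicate 4 had the largest positive weights on it, 0.452, 0.502 and 0.381, and high replicate 2, middle replicate 1 and indoor replicate 2 the largest negative ones, -0.338, -0.283 and -0.360.

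Of the 127 genes, 34 followed this component with a correlation over 0.7 across the 12 libraries and 6 ran against it below -0.7. Spipo6G0023400.v2 and Spipo14G0012800.v2, of the 5 most abundant genes, followed it at 0.841 and 0.88, and Spipo28G0012500.v2 ran against it at -0.777. The least variable gene, Spipo2G0050400.v2, was at 0.176. These correlations describe 12 libraries, and the genes themselves define the component. Over all pairs of the 127 genes the median correlation within groups was 0.0639, beside 0.0697 in the other abundant genes. The replicates with the largest positive weights carry different numbers in the 3 groups, and the source of the component was not tested.

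Of the features that the choice did not use, transcript length was read from the ratio of estimated count to FPKM, set to 1 for the median gene tested in each library. The median relative length was 0.661 in the 127 genes and 0.713 in the other abundant genes, so both sets were shorter than the genes tested as a whole. Of the 127 genes, 93 (73.2%) were shorter than the median gene, against 757 (68.0%) of the other abundant genes, and 3 against 51 were over 2 times as long. Spipo14G0012800.v2 was the shortest of the 127 at 0.186, and Spipo8G0047300.v2, at 1.74, was among the longer ones. No test was made between these sets, and FPKM itself is divided by length.

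The 127 genes were spread over the table. Identifiers carry a number before the letter G, of which the table has 33, and members fell under 30 of them, at most 12 under a single one. In identifier order 3 pairs of members stood next to each other, and this count was not compared with the number expected by chance. A run of 3 consecutive identifiers, Spipo16G0029300.v2, Spipo16G0029400.v2 and Spipo16G0029500.v2, was seen after the values were known. In it Spipo16G0029500.v2 averaged a scaled level of 137 ± 9.06 in indoor, 151 ± 17.9 in middle and 163 ± 30.5 in high libraries (SD, n = 4 each). Spipo16G0029400.v2 averaged 66.1 ± 6.70, 71.4 ± 3.57 and 69.5 ± 11.5, and Spipo16G0029300.v2 averaged 64.1 ± 9.75, 66.4 ± 8.83 and 60.6 ± 12.9. If these are overlapping or near-identical genes, the counting may have divided reads among them, which the files do not show.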

How the data were processed

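Leaf RNA of 12 libraries, 4 per group, was analysed. Per the file headers, the authors deposited an FPKM and a count for each of 18099 genes and each library. Tools listed, without roles, in the submitters' processing notes are StringTie 1.3.4d, HISAT2 2.0.4, cutadapt 1.9, edgeR, DESeq2 and UMI-tools. Per the labels' protocols the libraries mark strand and carry unique molecular identifiers. How the counting used these, and the genome build and annotation, is not given in the sources used here, so overlapping genes and near-identical copies are uncertain. The deposited counts are estimated counts that were already whole: within each of the 127 genes, count over FPKM, relative to the library's median ratio, varied by at most 0.997% between libraries. Total estimated counts per library were 23655239 to 32711880.

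The 127 genes, the gene lists and the tests were chosen with earlier results of these data known. The gene lists and leaf markers were not analysed here, for want of names. Counts were tested with edgeR 4.0.16 in R 4.3.3 (TMM, robust trended prior, quasi-likelihood F-test), over 15209 genes (FPKM 1 or more in 4 or more libraries), in 1 fit of all 12 libraries with a term per group and Benjamini-Hochberg adjustment over all genes tested. The test was also run on simulated counts drawn on the same TMM scaling, so that run does not check the choice of scaling. Each SE is the absolute log2 fold change divided by the root of F. Library medians were compared with exact permutation tests in scipy 1.17.1. Alternatives used DESeq2 1.42.0, limma 3.58.1, other scalings, other thresholds, no filter, a replicate block, and each library left out. Genes are named by a rule: the 5 most abundant, the 5 least variable, the highest and lowest fold change in each comparison, and the genes on either side of each threshold. No pair of libraries of a group was identical, with a chi-square per degree of freedom of 52.5 to 192.5 over the genes tested.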

Additional observations from a re-analysis of the deposited data

Results flagged for a closer look

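Of 72 sets of 4 libraries, 4 had an end value so far from its neighbour, relative to the spread of all 4, that it passed 0.829, the 95% limit of Dixon's test. About 1 in 20 sets does so by chance. Spipo28G0012500.v2 had a scaled level of 260 in high replicate 1, against 469 to 494 in the other high libraries. For high against indoor temperature, the log2 fold change without that library was 0.43 ± 0.17 (SE, edgeR adjusted p = 0.0711), in place of 0.25 ± 0.21 with it. Spipo4G0036600.v2 stood at 214 in indoor replicate 3, against 174.5 to 179 in the other indoor libraries, and its log2 fold change between middle and indoor temperature was -0.16 without that library and -0.28 with it. Spipo15G0031200.v2 stood at 141 in middle replicate 3, against 169 in each of the other middle libraries, and its log2 fold change between high and middle temperature was 0.21 without that library and 0.27 with it. The 127 genes held 2.85% of the estimated counts in indoor replicate 4, against 2.44% to 2.48% in the other indoor libraries. Indoor replicate 4 was also 1 of the 3 libraries that led the shared variation within groups.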

How the results depend on the processing

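The 127 genes became 35 and 218 with a ratio of 1.1 and 1.3, 69 with a spread under 15%, and 311 and 46 with a floor of 30 and 120. Without scaling, deposited FPKM gave 34 genes, of which 0 were among the 127. The upper quartile in place of the median gave 187 genes, 74 of them shared, and the TMM factor gave 116, with 114 shared. The population SD, chosen after seeing the data, gave 131. Leaving out each library gave 105 to 134 genes, with 92 to 110 shared, and 46 genes met the rule whichever library was left out.

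In settings without correction for library composition (library totals, limma on log2(FPKM + 1), limma on log2(FPKM + 0.1)), 125, 125 and 125 genes were called for high against indoor temperature, and 127, 126 and 126 for high against middle, all lower in the high group. Of the other abundant genes, the same settings called 64.6%, 63.1% and 63.3% in either direction between high and indoor temperature. Between high and middle temperature they called 53.2%, 52.6% and 52.5% of the other abundant genes. With library totals 57.2% and 62.9% of all genes tested were called lower in these comparisons. The choice held the 127 close to the median gene, so nothing is read from these counts. At an unadjusted p under 0.05 both limma settings passed 126 of the 127 between high and indoor temperature, beside 69.1% and 69.4% of all genes. Between high and middle temperature they passed 127, beside 71.0% and 70.7% of all genes. The median log2 fold changes of the 127 were -0.70, -0.70 and -0.70 between high and indoor, 0.0242, 0.0162 and 0.0162 between middle and indoor, and -0.74, -0.73 and -0.74 between high and middle temperature. DESeq2 called 1 gene between high and indoor temperature, beside 37.5% of all genes it tested. Leaving out each library gave median log2 fold changes of -0.03 to 0.03, -0.12 to -0.07 and 0.05 to 0.11 in these comparisons, with 0 to 1 genes called between high and indoor temperature and 0 in the others. The single call was Spipo4G0022600.v2, named after its values were seen, lower at high temperature without high replicate 3 (log2 fold change -0.42, adjusted p = 0.0329, edgeR), against -0.18 with all libraries. In the fit without that library 2 of the 127 had an unadjusted p under 0.05, beside 42.5% of all genes.

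Without each library in turn, the difference in library medians was -8.80 to -7.88 FPKM (high minus indoor), -10.8 to -9.64 FPKM (high minus middle) and 1.2 to 2.40 FPKM (middle minus indoor), and with 7 libraries no exact permutation test can pass. Of 12 correlations between same-numbered libraries, 3 were over 0.1 (median -0.00411), beside 9 of 36 between differently numbered ones (median 0.0182). Whether the numbers pair the samples cannot be told from these correlations, since paired samples need not deviate together. In the fit with a replicate block, edgeR called 0 of the 127 genes in each comparison, with median log2 fold changes of -0.01, -0.11 and 0.08. Of the other abundant genes it called 25.9%, 31.1% and 32.1% in the same order. The choice used the same contrasts, so nothing is read from the counts of 0. At an unadjusted p under 0.05 that fit passed 0 of the 127 in each, beside 41.3%, 44.4% and 39.8% of all genes. Of 1071 alternative values for 17 named genes, 968 kept their side of the threshold. Of the other 103, 102 were lower calls in the settings without correction for composition. The lowest estimated count of the 127 genes in any library was 389, and the abundance floor keeps such counts high. The effect of depth was not tested.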
